A study of Homo sapiens with 9 samples.

Results

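The genes described here encode the machinery that carries new proteins into the endoplasmic reticulum (ER), cuts off their signal peptides and attaches N-linked glycans to them. They were chosen by name as 39 genes, and all 39 were among the 15570 genes listed. They comprise 8 genes of the signal recognition particle (SRP) and its receptor, 8 of the translocon and its partners, 4 of the translocon-associated protein (TRAP) complex, 5 of signal peptidase, 10 of oligosaccharyltransferase (OST) and 4 ALG enzymes. RNA was measured in hCMEC/D3 cells, a line of immortalised endothelium from human brain microvessels that is widely grown to study the blood-brain barrier in culture. Cells of the OGD/R group (n = 3) had spent 4 h without glucose in a chamber holding 95% N2 and 5% CO2, and then 16 h back in normal medium at 21% O2 and 5% CO2. Those of the OGD group (n = 3) were taken after the same 4 h of oxygen and glucose deprivation, and control cells (n = 3) had neither step. All libraries came from this 1 line, and no source says whether replicates came from separate cultures. P-values therefore measure no more than how far these samples varied, and that variation may be technical.

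Proteins bound for secretion or for membranes are recognised on the ribosome by their signal sequence, which SRP binds and brings to the SRP receptor on the ER. The chain is then threaded through the SEC61 channel, aided by TRAP, TRAM1 and the SEC62 and SEC63 proteins, while signal peptidase removes the signal sequence. OST transfers a preassembled sugar chain, built on the lipid dolichol by the ALG enzymes, to asparagine residues of the entering protein. Many genes of this route are known targets of the unfolded protein response, in which XBP1 and ATF6 raise the capacity of the ER. In brain endothelium the route serves adhesion molecules, receptors and transporters of the cell surface.

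Values are FPKM, which count fragments relative to transcript length and to the fragments mapped in the library, so that levels can be compared between genes. They summed over all genes to 442696 to 449248 per library in OGD/R, 585947 to 605818 in OGD and 454237 to 537878 in control. Read numbers are not known, and counting error cannot be computed. Being relative to the library, FPKM cannot tell apart a change in the RNA of one gene per cell from a change in all other RNA, and it carries no information on cell number. The median log2 fold change of the 10818 genes tested was -0.31 when OGD was set against control. It was 0.39 for OGD/R against OGD, and 0.07 when OGD/R was set against control, and a fold change after subtraction of that median is called its relative value. Log2 FPKM also leaned on transcript length, with slopes per doubling of length of 0.134 to 0.232 in OGD/R, -0.205 to -0.154 in OGD and -0.074 to 0.0549 in control, relative to the mean of the libraries. Of 11 endothelial markers, 10 were listed and 4 reached 1 FPKM in any library (PECAM1, CDH5, ESAM and, at 6.11 to 37.96 FPKM, ENG), while VWF, CLDN5, TEK and KDR stayed at or below 0.101 FPKM, so the endothelial label rests on few markers. Summed marker levels ran from 33.8 to 44.1 FPKM in OGD/R, 7.41 to 8.33 in OGD and 14.6 to 20.1 in control for the endothelial list. The 4 fibroblast markers, of which DCN and PDGFRA stayed at or below 0.186 FPKM, summed to 27.8 to 38.4 FPKM in OGD/R, 5.12 to 6.18 in OGD and 9.21 to 13.1 in control. Over the libraries COL1A1 ran from 1.98 to 34.21 FPKM and LUM from 2.87 to 4.68, so COL1A1 carried the difference in that sum. For the 5 pericyte and smooth muscle markers the sums were 17.0 to 19.2, 6.03 to 7.63 and 9.95 to 13.5 FPKM in the same order of groups, and MYH11 stayed at or below 0.0574 FPKM. The 4 epithelial markers, carried by KRT18 and KRT8 with EPCAM and CDH1 at or below 0.104 FPKM, summed to 238 to 256, 129.9 to 139 and 166 to 201 FPKM in that order, and those of glia, neurons and leukocytes to at most 0.489 FPKM in any library. The part these differences play in the results below was not tested.

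The 39 genes were well expressed, and all of them passed the filter of at least 1 FPKM in at least 3 libraries. Mean levels in control cells ranged from 2.48 FPKM for SEC61A2 to 539 FPKM for SRP14, followed by SRP9 (442 FPKM) and DAD1 (365 FPKM). Together they held 3908.1, 3955 and 3993 FPKM in OGD/R replicates 1 to 3, 5896, 5963 and 5942 FPKM in OGD and 4462, 4459 and 4945 FPKM in control. This was 0.870% to 0.902% of all FPKM in OGD/R, 0.984% to 1.01% in OGD and 0.907% to 0.982% in control. The sums did not overlap between groups, and the share in OGD overlapped that in none of the OGD/R or control libraries, control replicate 2 (0.982%) lying closest. Single genes differed in whether OGD, OGD/R or control libraries were highest.

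**Figure D1:**
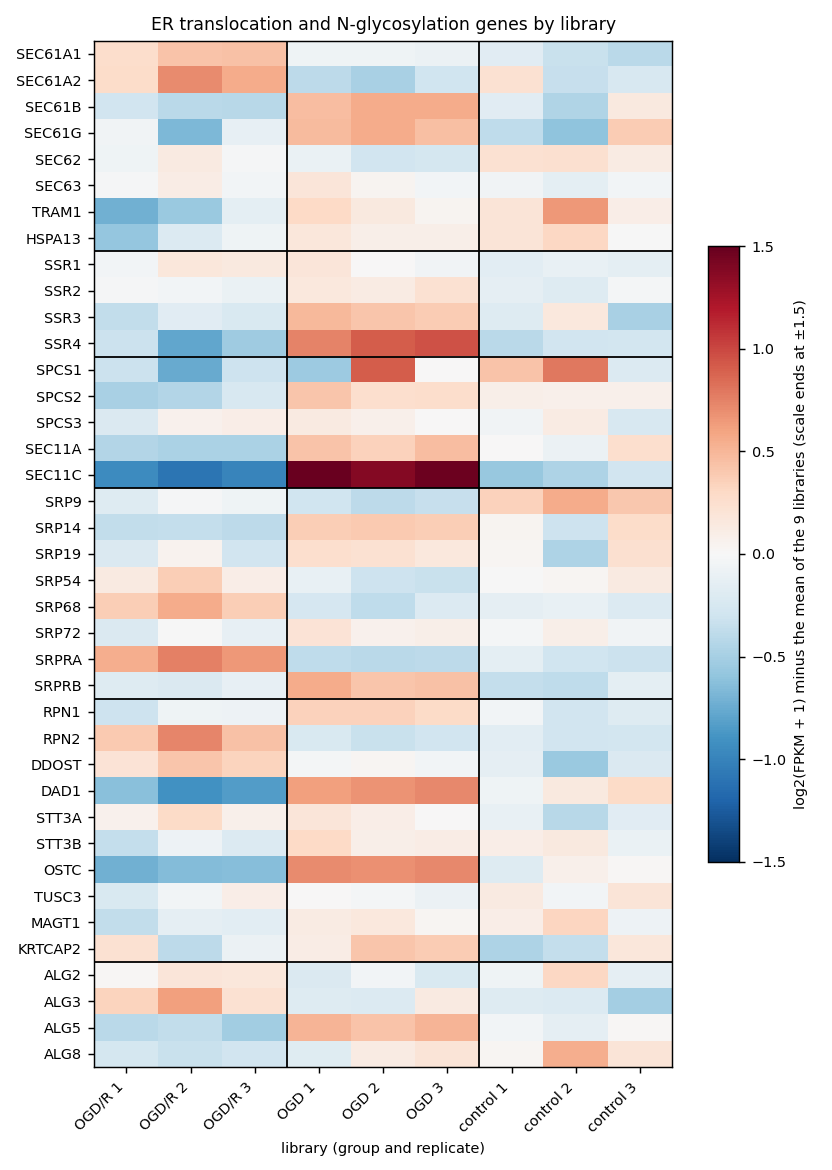
Level of each of the 39 genes (rows, grouped from top to bottom as translocon and partners, TRAP, signal peptidase, SRP and receptor, OST, ALG enzymes) in each of the 9 libraries (columns), as log2(FPKM + 1) minus the mean over libraries. Red is higher and blue lower, and the colour scale ends at 1.5 in each direction; SEC11C, SSR4, DAD1 and OSTC are highest in all 3 OGD libraries, and SRPRA, RPN2 and SRP68 in all 3 OGD/R libraries.

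In OGD against control, which asks what 4 h of deprivation did, 18 of the 39 genes rose and 3 fell (adjusted p under 0.05, limma, Benjamini-Hochberg over all genes). That is 46.2% higher and 7.69% lower, where of all genes tested 11.3% were called higher and 46.7% lower, which is the opposite order of shares. The largest rises were those of SEC11C, a catalytic subunit of signal peptidase (1.88 on the log2 scale), SSR4 of TRAP (1.19), SRPRB of the SRP receptor (0.77) and OSTC of OST (0.74). SRP9 fell by 0.78. The median log2 fold change of the set was 0.22, against -0.31 for all genes. Calls in either direction made up 58% of all genes. The split depended on scaling, with 30 higher and 1 lower by median-of-ratios scaling (all genes 26.5% and 23.1%), 16 higher and 2 lower after quantile normalization (all genes 20% and 22.4%) and 24 higher and 1 lower with the length trend removed (all genes 21.2% and 21.4%). Without control replicate 2 the count of rises was 11. Of the 18 rises, 8 held under all 17 alternatives run, among them single libraries left out: SEC61B, SSR3, SSR4, SEC11C, SRPRB, RPN1, OSTC and ALG5.

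In OGD/R against OGD, which asks what followed on return to oxygen and glucose, 21 genes fell and 10 rose. These shares, 53.8% lower and 25.6% higher, stood beside 17.4% and 53.3% of all genes. The largest falls were those of SEC11C (-2.45), DAD1 (-1.46), SSR4 (-1.41) and OSTC (-1.37), and the largest rises those of SRPRA (1.05), SEC61A2 (0.91), RPN2 (0.81) and SRP68 (0.71). The set's median was -0.34, against 0.39 for all genes. Of all genes 70.7% were called in either direction. Other scalings gave 29 lower and 4 higher by median-of-ratios scaling (all genes 34.2% and 32.6%), 19 lower and 8 higher after quantile normalization (all genes 31.3% and 31.4%) and 22 lower and 8 higher with the length trend removed (all genes 29.3% and 29.7%). Of the falls 11 held under all alternatives (SSR3, SSR4, SPCS2, SEC11A, SEC11C, SRP14, SRPRB, DAD1, STT3B, OSTC and ALG5) and of the rises 3 (SRP68, SRPRA and RPN2).

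In OGD/R against control, 8 genes were higher and 12 lower, or 20.5% and 30.8%, where all genes gave 24.7% and 16.5%. The median of the set was -0.09, against 0.07, and 41.2% of all genes were called. Other scalings gave 8 higher and 15 lower by median-of-ratios scaling (all genes 22.1% and 23%), 9 higher and 11 lower after quantile normalization (all genes 22.1% and 23.1%) and 11 higher and 13 lower with the length trend removed (all genes 22% and 21.4%). SRPRA (0.91), RPN2 (0.76), ALG3 (0.69), SEC61A1 (0.68), DDOST (0.63) and SRP68 (0.58) rose under every alternative. DAD1 (-0.91), TRAM1 (-0.79), OSTC (-0.64), SEC11C (-0.57), ALG8 (-0.55), SRP9 (-0.53), SEC11A (-0.52) and SPCS2 (-0.47) fell under every alternative. The 3 comparisons share libraries, so their calls are not independent. Side by side, 7 genes were called higher in OGD against control, lower in OGD/R against OGD and lower in OGD/R against control, and 7 more showed the first 2 calls with none in the third. Another 5 were called higher in OGD/R against both other groups with no call in OGD against control, and 6 had no call in any comparison. Such patterns were counted for this set alone and not over all genes. Whether any of them is more common here than among all genes was therefore not tested.

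**Figure D2:**
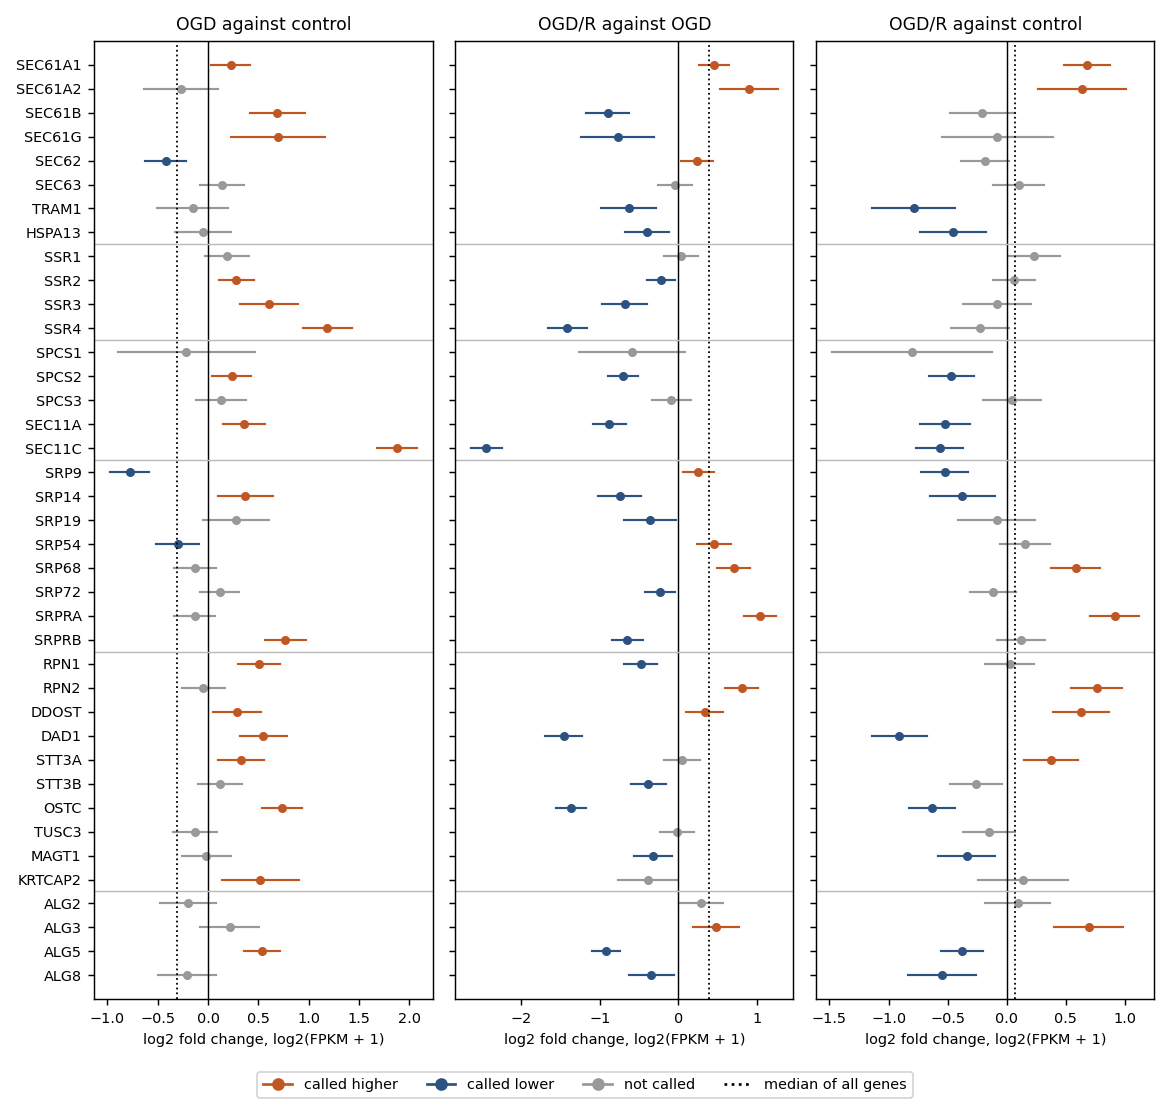
Log2 fold change on the log2(FPKM + 1) scale (x axis) of each gene (rows, in the groups of the heat map) in the 3 comparisons, with the 95% interval of the limma fit. Orange is called higher, blue called lower and grey not called, and the dotted line marks the median of all genes; SEC11C lies farthest out in the first 2 panels, at 1.88 and -2.45.

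Because genes of this route are known targets of the unfolded protein response, promoter windows from RefSeq (GRCh38.p14, 250 bases before to 50 after an annotated start, 300 in all) were searched on both strands. Windows were found for 33 of the 39 genes, 9 of them with more than 1 start. The UPR element TGACGTGG was in at least 1 window of 4 of the 33 genes (12.1%), against 0.927% of all 27305 genes with windows. The ER stress element (CCAAT, 9 bases of any kind, CCACG) and its second form (ATTGG, 1 base of any kind, CCACG) were in none of the 33, and in 0.0916% and 0.0696% of all genes. The amino acid response element TGATGNAAT was in 1 gene, SRPRB (3.03%, against 1.22% of all genes). The 33 genes all passed the expression filter, whereas the 27305 were taken with no such filter, so these shares compare unlike sets. The windows with the UPR element are shown because their genes moved in different directions, and that of SEC11C because it changed most. Capitals mark the element, which in all 4 lies on the opposite strand and reads CCACGTCA. Positions are chr3:156554076-156554375, minus strand, for the SSR3 start farthest downstream of 3, chrX:153794418-153794717, plus strand, for the second of its 2 starts, chr3:169966557-169966856, plus strand, chr5:112861037-112861336, plus strand, and chr18:59139634-59139933, plus strand.
SSR3: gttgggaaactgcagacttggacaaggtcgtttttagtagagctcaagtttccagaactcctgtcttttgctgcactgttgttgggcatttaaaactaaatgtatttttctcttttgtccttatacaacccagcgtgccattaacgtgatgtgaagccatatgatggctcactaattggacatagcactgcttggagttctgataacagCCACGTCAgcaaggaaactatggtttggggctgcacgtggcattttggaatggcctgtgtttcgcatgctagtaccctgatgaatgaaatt
SSR4: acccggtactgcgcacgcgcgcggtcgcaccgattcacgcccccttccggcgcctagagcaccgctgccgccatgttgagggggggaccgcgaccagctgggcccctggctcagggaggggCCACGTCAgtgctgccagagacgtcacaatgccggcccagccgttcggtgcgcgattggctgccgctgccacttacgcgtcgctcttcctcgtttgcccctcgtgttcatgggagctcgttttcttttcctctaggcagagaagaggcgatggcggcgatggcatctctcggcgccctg
SEC62: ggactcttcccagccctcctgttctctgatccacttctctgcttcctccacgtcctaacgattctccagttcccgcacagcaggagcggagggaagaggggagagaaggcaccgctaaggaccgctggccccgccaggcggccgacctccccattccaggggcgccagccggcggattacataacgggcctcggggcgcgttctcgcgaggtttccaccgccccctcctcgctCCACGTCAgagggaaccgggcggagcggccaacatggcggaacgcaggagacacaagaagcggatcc
SRP19: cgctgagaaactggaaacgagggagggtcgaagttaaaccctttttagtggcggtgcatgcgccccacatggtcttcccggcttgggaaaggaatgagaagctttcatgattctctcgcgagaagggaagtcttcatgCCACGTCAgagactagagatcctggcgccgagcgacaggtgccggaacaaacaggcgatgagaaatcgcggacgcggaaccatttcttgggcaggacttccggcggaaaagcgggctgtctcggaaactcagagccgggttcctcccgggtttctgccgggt
SEC11C: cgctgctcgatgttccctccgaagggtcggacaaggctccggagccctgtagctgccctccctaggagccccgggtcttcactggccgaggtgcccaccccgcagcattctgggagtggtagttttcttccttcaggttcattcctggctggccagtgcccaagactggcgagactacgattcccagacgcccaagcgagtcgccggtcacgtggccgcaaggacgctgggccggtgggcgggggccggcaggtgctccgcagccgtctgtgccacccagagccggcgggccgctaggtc
The element begins 41 bases before the start in SSR3, 129 in SSR4, 17 in SEC62 and 112 in SRP19. Of these 4 genes SSR3 and SSR4 rose in OGD against control, SEC62 fell and SRP19 was not called. A match is a description of letters, and the SEC11C window held none of the elements searched.

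SRP and its receptor had 2 higher and 2 lower of 8 in OGD against control, 4 higher and 4 lower of 8 in OGD/R against OGD and 2 higher and 2 lower of 8 in OGD/R against control. Beside the counts of this and each later functional group stand the shares of all genes. These were 11.3% higher and 46.7% lower in OGD against control. In OGD/R against OGD they were 53.3% and 17.4%, and in OGD/R against control 24.7% and 16.5%. These hold for the deposited scale. By median-of-ratios scaling the shares of all genes, higher then lower, were 26.5% and 23.1%, then 32.6% and 34.2%, then 22.1% and 23%. After quantile normalization they were 20% and 22.4%, then 31.4% and 31.3%, then 22.1% and 23.1%. With the length trend removed they were 21.2% and 21.4%, then 29.7% and 29.3%, then 22% and 21.4%. On the deposited scale, the SRP shares called higher in OGD/R, 50% against OGD and 25% against control, stood near those of all genes. The SRP higher and lower counts, in that order of comparisons, were 6 and 1, then 2 and 4, then 2 and 3 by median-of-ratios scaling, 2 and 1, then 4 and 4, then 2 and 1 after quantile normalization, and 5 and 1, then 3 and 4, then 2 and 2 with the length trend removed. SRPRA, a GTPase subunit of the receptor that docks SRP (NCBI Gene 6734, chromosome 11, 126235930 to 126268895 on GRCh38), had 32.2, 37.6 and 34.8 FPKM in OGD/R replicates 1 to 3, 16.5, 16.2 and 16.3 FPKM in OGD and 19.5, 17.5 and 17.2 FPKM in control. All OGD/R libraries lay above all others, and the OGD libraries just below the controls. SRPRA was higher in OGD/R than in OGD (log2 fold change 1.05, SE 0.09, adjusted p = 1.65e-06) and than in control (log2 fold change 0.91, SE 0.09, adjusted p = 3.64e-05). Against the median of all genes the rise over control was 0.85. SRPRB, which anchors the receptor in the membrane (NCBI Gene 58477, chromosome 3, 133784023 to 133828574), had 25.1, 24.8 and 26.5 FPKM in OGD/R replicates 1 to 3, 42.99, 38.9 and 39.7 FPKM in OGD and 22.4, 21.997 and 25.96 FPKM in control. Its OGD libraries were the highest, and OGD/R and control overlapped. It shares 11.6% of its exon bases with AC080128.2 on the opposite strand and 4.0% with TF on the same strand. SRPRB rose in OGD against control (log2 fold change 0.77, SE 0.09, adjusted p = 5.57e-05) and fell in OGD/R against OGD (log2 fold change -0.65, SE 0.09, adjusted p = 5.6e-05), while OGD/R against control gave 0.12 (95% interval -0.08 to 0.32, adjusted p = 0.328). The receptor subunits thus stood apart by condition, SRPRB highest in OGD and SRPRA highest in OGD/R. SRPRA, not called in OGD against control with all 9 libraries as deposited, was called there under median-of-ratios scaling (0.22, adjusted p = 0.0192) and after length-trend removal (0.24, adjusted p = 0.0129).

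SRP9, which with SRP14 forms the domain that slows translation during targeting, had 286, 322 and 311 FPKM in OGD/R replicates 1 to 3, 265, 248 and 257 FPKM in OGD and 413, 482 and 431 FPKM in control. Every OGD library was below every OGD/R library and every OGD/R library below every control. SRP9 fell in OGD against control (log2 fold change -0.78, SE 0.09, adjusted p = 4.23e-05) and was lower in OGD/R than in control (log2 fold change -0.53, SE 0.09, adjusted p = 0.00079), while OGD/R against OGD was called higher at 0.26 (relative value -0.13, adjusted p = 0.0235). Its partner SRP14, the most abundant of the 39 genes, averaged 409.7 ± 5.68 FPKM in OGD/R, 689 ± 6.43 in OGD and 539 ± 107 in control (SD, n = 3 each). SRP14 rose in OGD against control (0.37, adjusted p = 0.0226) and fell in OGD/R against OGD (-0.75, adjusted p = 0.000182) and against control (-0.38, adjusted p = 0.0298). SRP68, which with SRP72 binds the SRP RNA, averaged 27.7 ± 2.296 FPKM in OGD/R, 16.6 ± 1.09 in OGD and 18.2 ± 0.627 in control. SRP68 was higher in OGD/R than in OGD (0.71, relative value 0.32, adjusted p = 3.69e-05). It was also higher there than in control (0.58, relative value 0.52, adjusted p = 0.000622). SRP72 stayed between 37.4 and 50.2 FPKM in the 9 libraries and was called lower in OGD/R against OGD (-0.23, adjusted p = 0.0334). SRP54, the GTPase that binds the signal sequence, averaged 64.7 ± 6.88 FPKM in OGD/R, 46.9 ± 4.05 in OGD and 57.9 ± 2.996 in control, with a fall in OGD (-0.30, relative value 0.01) and a rise in OGD/R against OGD (0.46, relative value 0.07). SRP19, needed for assembly of the particle, ranged from 37.3 to 61.9 FPKM and was called lower in OGD/R against OGD (-0.36). SRP19 shares 29.6% of its exon bases with the pseudogene ZRSR2P1. Named pseudogenes number 4 for SRP14, 3 for SRP68, 2 for SRP72 and 1 for SRP9. The values of these genes are therefore uncertain. The call of SRP9 in OGD/R against OGD was lost without OGD/R replicates 2 or 3 or OGD replicates 2 or 3 (adjusted p from 0.0666 to 0.0904). SRP9 in OGD/R against OGD took the opposite sign under median-of-ratios scaling (-0.22, adjusted p = 0.0795). The call of SRP14 in OGD against control was lost with no filter on low values, after quantile normalization and without OGD replicates 1, 2 or 3 or control replicate 2 (adjusted p from 0.0516 to 0.463). The call of SRP14 in OGD/R against control was lost with no filter on low values, after quantile normalization, after length-trend removal, with only its own groups in the fit and without OGD/R replicates 1, 2 or 3 or control replicates 1 or 3 (adjusted p from 0.0658 to 0.219). The call of SRP19 in OGD/R against OGD was lost with a pseudocount of 0.1, with no filter on low values and without OGD/R replicates 1 or 3, OGD replicates 1, 2 or 3 or control replicate 1 (adjusted p from 0.0508 to 0.147). The call of SRP54 in OGD against control was lost after quantile normalization, after length-trend removal and without OGD replicates 2 or 3 or control replicate 3 (adjusted p from 0.0502 to 0.773). SRP54 in OGD against control took the opposite sign under median-of-ratios scaling (0.07, adjusted p = 0.586). The call of SRP54 in OGD/R against OGD was lost after length-trend removal (adjusted p = 0.156). SRP54 in OGD/R against OGD took the opposite sign under median-of-ratios scaling (-0.01, adjusted p = 0.945). The call of SRP72 in OGD/R against OGD was lost without OGD/R replicates 1 or 3 or OGD replicates 1, 2 or 3 (adjusted p from 0.0554 to 0.133). SRP19, not called in OGD against control with all 9 libraries as deposited, was called there under median-of-ratios scaling (0.64, adjusted p = 0.00663), after length-trend removal (0.62, adjusted p = 0.0101) and with control replicate 3 left out (0.43, adjusted p = 0.0193). SRP68, not called in OGD against control with all 9 libraries as deposited, was called there under median-of-ratios scaling (0.22, adjusted p = 0.0345). SRP72, not called in OGD against control with all 9 libraries as deposited, was called there under median-of-ratios scaling (0.48, adjusted p = 0.000662), after quantile normalization (0.22, adjusted p = 0.0484) and after length-trend removal (0.54, adjusted p = 0.000202). SRP72, not called in OGD/R against control with all 9 libraries as deposited, was called there under median-of-ratios scaling (-0.21, adjusted p = 0.042) and after length-trend removal (-0.31, adjusted p = 0.00579).

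The translocon genes gave 3 higher and 1 lower of 8 in OGD against control, 3 higher and 4 lower of 8 in OGD/R against OGD and 2 higher and 2 lower of 8 in OGD/R against control. The 25% called higher in OGD/R against control stood near the 24.7% of all genes. Translocon higher and lower counts, in that order of comparisons, were 5 and 0, then 1 and 6, then 2 and 3 by median-of-ratios scaling, 3 and 1, then 1 and 3, then 2 and 2 after quantile normalization, and 4 and 0, then 1 and 4, then 4 and 3 with the length trend removed. SEC61A1 encodes the pore-forming subunit (NCBI Gene 29927, chromosome 3, 128051641 to 128071683), with 69.3, 77.7 and 77.996 FPKM in OGD/R replicates 1 to 3, 54.7, 54.7 and 53.8 FPKM in OGD and 50.9, 45.5 and 43.02 FPKM in control. The groups did not overlap, and the order was OGD/R above OGD above control. SEC61A1 was higher in OGD/R than in control (log2 fold change 0.68, SE 0.09, adjusted p = 0.000139), and higher in OGD/R than in OGD (0.46, relative value 0.07) and in OGD than in control (0.23, relative value 0.54). SEC61A2, its scarce paralog, had 3.499, 5.07 and 4.497 FPKM in OGD/R replicates 1 to 3, 1.84, 1.66 and 2.03 FPKM in OGD and 3.36, 1.92 and 2.15 FPKM in control. OGD/R libraries lay above all others, and OGD and control overlapped. SEC61A2 rose in OGD/R against OGD (log2 fold change 0.91, SE 0.17, adjusted p = 0.00045) and against control (0.63, adjusted p = 0.0107). It shares 9.5% of its exon bases with NUDT5 on the opposite strand. The call of SEC61A1 in OGD against control was lost with only its own groups in the fit and without OGD/R replicate 3, OGD replicates 1, 2 or 3 or control replicates 2 or 3 (adjusted p from 0.0542 to 0.116). SEC61A1 in OGD/R against OGD took the opposite sign under median-of-ratios scaling (-0.01, adjusted p = 0.911) and after length-trend removal (-0.13, adjusted p = 0.0972). The call of SEC61A2 in OGD/R against OGD was lost after quantile normalization (adjusted p = 0.0516). The call of SEC61A2 in OGD/R against control was lost without OGD/R replicate 2 (adjusted p = 0.0528).

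On the deposited scale the small tail-anchored subunits moved differently from SEC61A1, falling in OGD/R against OGD where SEC61A1 rose. With the length trend removed, SEC61A1 (-0.13), SEC61B (0.01) and SEC61G (0.22) were not called in that comparison. SEC61B had 248, 230.5 and 228 FPKM in OGD/R replicates 1 to 3, 422, 449.9 and 448 FPKM in OGD and 270.1, 222 and 336 FPKM in control. Its OGD libraries were above all others, whereas OGD/R and control overlapped. SEC61B rose in OGD against control (log2 fold change 0.69, SE 0.13, adjusted p = 0.000785) and fell in OGD/R against OGD (log2 fold change -0.90, SE 0.13, adjusted p = 4.92e-05). SEC61G averaged 269 ± 58.4 FPKM in OGD/R, 453 ± 17.6 in OGD and 292 ± 111 in control. Control replicate 3 read 419 FPKM, near the OGD libraries, beside 247 and 212 in the other controls. SEC61G was called higher in OGD against control (0.70) and lower in OGD/R against OGD (-0.77). Both transcripts are short (545 and 487 bases), and SEC61B, once the length trend was removed, stood at 0.20 (adjusted p = 0.0341) in OGD against control. SEC61B in OGD/R against OGD took the opposite sign after length-trend removal (0.01, adjusted p = 0.943). The call of SEC61G in OGD against control was lost with no filter on low values, after quantile normalization, after length-trend removal and without control replicates 1 or 2 (adjusted p from 0.0599 to 0.324). The call of SEC61G in OGD/R against OGD was lost after quantile normalization (adjusted p = 0.118). SEC61G in OGD/R against OGD took the opposite sign after length-trend removal (0.22, adjusted p = 0.135). SEC61B, not called in OGD/R against control with all 9 libraries as deposited, was called there after length-trend removal (0.21, adjusted p = 0.0299) and with control replicate 2 left out (-0.35, adjusted p = 0.0162). SEC61G, not called in OGD/R against control with all 9 libraries as deposited, was called there after length-trend removal (0.37, adjusted p = 0.0281).

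TRAM1, a membrane protein that contacts entering chains, had 92.7, 104 and 139 FPKM in OGD/R replicates 1 to 3, 188, 170.2 and 158 FPKM in OGD and 175, 242 and 165 FPKM in control. All OGD/R libraries were the lowest, and OGD and control overlapped. TRAM1 fell in OGD/R against control (log2 fold change -0.79, SE 0.16, adjusted p = 0.00226) and against OGD (log2 fold change -0.63, SE 0.16, adjusted p = 0.00357). HSPA13, an HSP70-family ATPase of the microsomal lumen, averaged 32.4 ± 5.97 FPKM in OGD/R, 42.5 ± 1.32 in OGD and 44.3 ± 4.98 in control. HSPA13 was lower in OGD/R than in OGD (-0.40, adjusted p = 0.014) and than in control (-0.45, adjusted p = 0.0141). SEC62, which with SEC63 serves chains that enter after translation, averaged 30.4 ± 2.39 FPKM in OGD/R, 25.6 ± 1.88 in OGD and 34.6 ± 1.56 in control. It fell in OGD against control (-0.42, relative value -0.11) and rose in OGD/R against OGD (0.24, relative value -0.15). SEC63, whose J domain recruits the ER chaperone BiP, stayed between 14.1 and 17.9 FPKM in all libraries. The call of TRAM1 in OGD/R against OGD was lost after quantile normalization (adjusted p = 0.0769). The call of HSPA13 in OGD/R against OGD was lost without OGD/R replicate 1 (adjusted p = 0.0639). The call of HSPA13 in OGD/R against control was lost without OGD/R replicate 1 (adjusted p = 0.0523). The call of SEC62 in OGD against control was lost under median-of-ratios scaling (adjusted p = 0.508). SEC62 in OGD against control took the opposite sign after length-trend removal (0.01, adjusted p = 0.939). The call of SEC62 in OGD/R against OGD was lost after quantile normalization and without OGD/R replicates 2 or 3 or OGD replicates 2 or 3 (adjusted p from 0.0655 to 0.797). SEC62 in OGD/R against OGD took the opposite sign under median-of-ratios scaling (-0.22, adjusted p = 0.0194) and after length-trend removal (-0.38, adjusted p = 0.000658). HSPA13, not called in OGD against control with all 9 libraries as deposited, was called there under median-of-ratios scaling (0.31, adjusted p = 0.0374) and after length-trend removal (0.38, adjusted p = 0.0121). SEC62, not called in OGD/R against control with all 9 libraries as deposited, was called there under median-of-ratios scaling (-0.28, adjusted p = 0.01) and after length-trend removal (-0.37, adjusted p = 0.00154). SEC63, not called in OGD against control with all 9 libraries as deposited, was called there under median-of-ratios scaling (0.49, adjusted p = 0.00109), after quantile normalization (0.44, adjusted p = 0.00301) and after length-trend removal (0.58, adjusted p = 0.000598). SEC63, not called in OGD/R against OGD with all 9 libraries as deposited, was called there under median-of-ratios scaling (-0.48, adjusted p = 0.000502), after quantile normalization (-0.43, adjusted p = 0.00146) and after length-trend removal (-0.74, adjusted p = 5.33e-05).

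TRAP, which assists the insertion of some signal sequences and contacts OST, had 3 higher and 0 lower of 4 in OGD against control, 0 higher and 3 lower of 4 in OGD/R against OGD and 0 higher and 0 lower of 4 in OGD/R against control. TRAP higher and lower counts, in that order of comparisons, were 4 and 0, then 0 and 4, then 0 and 0 by median-of-ratios scaling, 3 and 0, then 0 and 3, then 1 and 0 after quantile normalization, and 3 and 0, then 1 and 3, then 1 and 0 with the length trend removed. SSR4, its delta subunit (NCBI Gene 6748, chromosome X, 153794159 to 153798499), had 149, 108 and 129 FPKM in OGD/R replicates 1 to 3, 313, 350.2 and 361 FPKM in OGD and 141, 153 and 154 FPKM in control. The OGD libraries stood far above the rest, and OGD/R and control overlapped. SSR4 rose in OGD against control (log2 fold change 1.19, SE 0.11, adjusted p = 1.12e-05) and fell in OGD/R against OGD (log2 fold change -1.41, SE 0.11, adjusted p = 7.46e-07). It shares 16.2% of its exon bases with IDH3G on the opposite strand, so part of its reads may belong to that gene. SSR3, the gamma subunit, had 93.5, 107 and 103 FPKM in OGD/R replicates 1 to 3, 169, 162 and 158 FPKM in OGD and 106, 135 and 86.1 FPKM in control, with OGD again highest and the other groups overlapping. SSR3 rose in OGD against control (log2 fold change 0.60, SE 0.13, adjusted p = 0.00242) and fell in OGD/R against OGD (log2 fold change -0.68, SE 0.13, adjusted p = 0.000568). SSR2, the beta subunit, had 225, 219.5 and 212 FPKM in OGD/R replicates 1 to 3, 253, 246 and 265 FPKM in OGD and 207, 199 and 223 FPKM in control. OGD was highest, and OGD/R and control overlapped. SSR2 was called higher in OGD against control (0.28) and lower in OGD/R against OGD (-0.22). SSR1, the alpha subunit, read 15.5 to 19.8 FPKM and was not called on the deposited scale in any comparison (0.19 in OGD against control, 95% interval -0.03 to 0.41). In OGD/R against control limma called 0 of 4, with 1 at an unadjusted p under 0.05, and other scalings called 0 by median-of-ratios scaling, 1 after quantile normalization and 1 with the length trend removed. The 4 subunits lay there between -0.23 and 0.23. The call of SSR2 in OGD against control was lost after quantile normalization, after length-trend removal and without OGD replicate 3 (adjusted p from 0.0563 to 0.14). The call of SSR2 in OGD/R against OGD was lost without OGD/R replicate 3 or OGD replicates 1, 2 or 3 (adjusted p from 0.0545 to 0.119). SSR2 in OGD/R against OGD took the opposite sign after quantile normalization (0.11, adjusted p = 0.141) and after length-trend removal (0.20, adjusted p = 0.014). SSR1, not called in OGD against control with all 9 libraries as deposited, was called there under median-of-ratios scaling (0.54, adjusted p = 0.000546), after quantile normalization (0.47, adjusted p = 0.00172) and after length-trend removal (0.60, adjusted p = 0.000179). SSR1, not called in OGD/R against OGD with all 9 libraries as deposited, was called there under median-of-ratios scaling (-0.41, adjusted p = 0.00126), after quantile normalization (-0.34, adjusted p = 0.00565) and after length-trend removal (-0.67, adjusted p = 3.65e-05). SSR2, not called in OGD/R against control with all 9 libraries as deposited, was called there after quantile normalization (0.23, adjusted p = 0.0122) and after length-trend removal (0.33, adjusted p = 0.00177). SSR4, not called in OGD/R against control with all 9 libraries as deposited, was called there with OGD/R replicate 1 left out (-0.34, adjusted p = 0.0327).

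Signal peptidase held the largest change of the set, with 3 higher and 0 lower of 5 in OGD against control, 0 higher and 3 lower of 5 in OGD/R against OGD and 0 higher and 3 lower of 5 in OGD/R against control. Signal peptidase higher and lower counts, in that order of comparisons, were 4 and 0, then 0 and 5, then 0 and 3 by median-of-ratios scaling, 2 and 0, then 0 and 3, then 0 and 3 after quantile normalization, and 4 and 0, then 0 and 4, then 0 and 3 with the length trend removed. SEC11C, 1 of its alternative catalytic subunits (NCBI Gene 90701, chromosome 18, 59139884 to 59158832), had 29.9, 26.7 and 28.9 FPKM in OGD/R replicates 1 to 3, 164, 153 and 162 FPKM in OGD and 38.9, 42.1 and 47.6 FPKM in control. The OGD libraries were separated from all others, and the OGD/R libraries lay below every control. SEC11C rose in OGD against control (log2 fold change 1.88, SE 0.09, adjusted p = 9.53e-08), with a relative value of 2.19. It fell in OGD/R against OGD (log2 fold change -2.45, SE 0.09, adjusted p = 5.05e-09) and ended lower than in control (log2 fold change -0.57, SE 0.09, adjusted p = 0.000526). After removal of the length trend the 3 values were 1.82 (adjusted p = 2.53e-07), -2.18 (adjusted p = 7.06e-08) and -0.36 (adjusted p = 0.00538).

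SEC11A, the other catalytic subunit, had 212, 207 and 207 FPKM in OGD/R replicates 1 to 3, 391, 367 and 399 FPKM in OGD and 289.8, 271 and 344 FPKM in control, the OGD/R libraries lowest and the OGD libraries highest with no overlap. SEC11A rose in OGD against control (log2 fold change 0.36, SE 0.10, adjusted p = 0.00768) and fell in OGD/R against OGD (log2 fold change -0.88, SE 0.10, adjusted p = 7.54e-06) and against control (log2 fold change -0.52, SE 0.10, adjusted p = 0.00132). SPCS2, an accessory subunit, had 42.96, 44.6 and 51.2 FPKM in OGD/R replicates 1 to 3, 81.4, 72.7 and 73.3 FPKM in OGD and 64.4, 64.1 and 63.96 FPKM in control. The groups did not overlap, OGD/R being lowest and OGD highest, and 4 named pseudogenes may share its reads. It was lower in OGD/R than in OGD (log2 fold change -0.70, SE 0.09, adjusted p = 2.12e-05) and than in control (log2 fold change -0.47, SE 0.09, adjusted p = 0.00148), and higher in OGD than in control (0.24, adjusted p = 0.0383). SPCS3, which is needed for catalysis, stayed between 37.6 and 49.2 FPKM and was not called on the deposited scale. SPCS1 had 44.7, 32.9 and 44.97 FPKM in OGD/R replicates 1 to 3, 38.3, 107 and 56.2 FPKM in OGD and 75.8, 98.2 and 48.7 FPKM in control, a wide spread within OGD. It shares 60.5% of its exon bases with NEK4 on the opposite strand, its values are therefore uncertain, and it was not called on the deposited scale in any comparison (adjusted p from 0.0565 to 0.568). The call of SEC11A in OGD against control was lost after quantile normalization (adjusted p = 0.108). The call of SPCS2 in OGD against control was lost without OGD replicates 1, 2 or 3 or control replicates 1, 2 or 3 (adjusted p from 0.0561 to 0.155). SPCS1, not called in OGD/R against OGD with all 9 libraries as deposited, was called there under median-of-ratios scaling (-1.05, adjusted p = 0.0217) and with OGD replicate 1 left out (-0.92, adjusted p = 0.014). SPCS1, not called in OGD/R against control with all 9 libraries as deposited, was called there with only its own groups in the fit (-0.80, adjusted p = 0.0136), with OGD replicate 1 left out (-0.80, adjusted p = 0.0282), with OGD replicate 2 left out (-0.80, adjusted p = 0.0153) and with control replicate 3 left out (-1.07, adjusted p = 0.019). SPCS3, not called in OGD against control with all 9 libraries as deposited, was called there under median-of-ratios scaling (0.49, adjusted p = 0.00233) and after length-trend removal (0.57, adjusted p = 0.000406). SPCS3, not called in OGD/R against OGD with all 9 libraries as deposited, was called there under median-of-ratios scaling (-0.55, adjusted p = 0.000559) and after length-trend removal (-0.74, adjusted p = 3.04e-05).

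**Figure D3:**
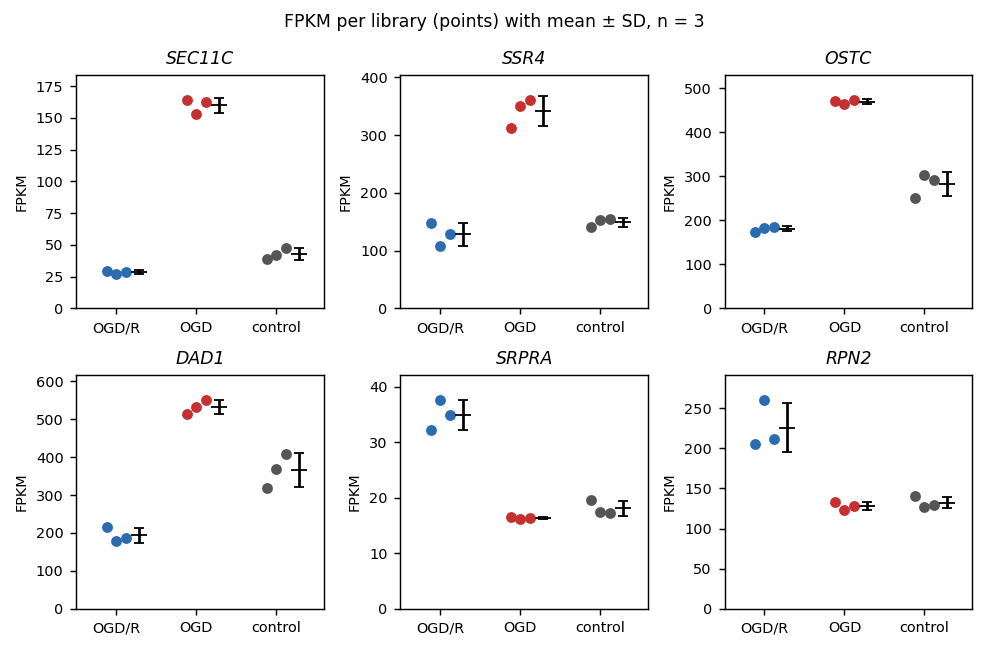
FPKM (y axes from 0) of 6 genes in each OGD/R, OGD and control library (coloured points) with the mean ± SD of each group (black, n = 3). SEC11C, SSR4, OSTC and DAD1 are highest in OGD, and SRPRA and RPN2 in OGD/R, where RPN2 averaged 226 FPKM.

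OST gave 6 higher and 0 lower of 10 in OGD against control, 2 higher and 5 lower of 10 in OGD/R against OGD and 3 higher and 3 lower of 10 in OGD/R against control. The 30% called higher in OGD/R against control stood near the 24.7% of all genes. On the deposited scale, shared subunits were highest in OGD (DAD1 and RPN1) or in OGD/R (RPN2 and DDOST). The rise of DDOST in OGD/R against OGD lay near the median of all genes (relative value -0.05). OST higher and lower counts, in that order of comparisons, were 9 and 0, then 1 and 8, then 3 and 4 by median-of-ratios scaling, 4 and 0, then 2 and 4, then 3 and 3 after quantile normalization, and 7 and 0, then 2 and 6, then 3 and 4 with the length trend removed. DAD1, a small membrane subunit (NCBI Gene 1603, chromosome 14, 22564907 to 22589224), had 215, 178 and 187 FPKM in OGD/R replicates 1 to 3, 513, 533 and 551 FPKM in OGD and 318, 368 and 408 FPKM in control. The groups did not overlap, OGD being highest and OGD/R lowest. DAD1 rose in OGD against control (log2 fold change 0.55, SE 0.11, adjusted p = 0.00116) and fell in OGD/R against OGD (log2 fold change -1.46, SE 0.11, adjusted p = 4.26e-07) and against control (log2 fold change -0.91, SE 0.11, adjusted p = 8.2e-05). OSTC, a subunit of the form of OST that works at the translocon (NCBI Gene 58505, chromosome 4, 108650599 to 108667820), had 175, 184 and 185 FPKM in OGD/R replicates 1 to 3, 470.1, 464 and 474 FPKM in OGD and 251, 303 and 293 FPKM in control, in the same order and without overlap. OSTC rose in OGD against control (log2 fold change 0.74, SE 0.09, adjusted p = 5.69e-05) and fell in OGD/R against OGD (log2 fold change -1.37, SE 0.09, adjusted p = 1.92e-07) and against control (log2 fold change -0.64, SE 0.09, adjusted p = 0.000227). OSTC has 6 named pseudogenes with which reads may be shared. KRTCAP2, found in the same form as OSTC, averaged 70.3 ± 15.2 FPKM in OGD/R, 90.8 ± 10.3 in OGD and 63.99 ± 15.99 in control, with overlapping libraries. It was called higher in OGD against control (0.52), and 82.4% of its exon bases also belong to the gene model AL713999.1 on the same strand, so its level is uncertain. The call of DAD1 in OGD against control was lost after length-trend removal (adjusted p = 0.0638). The call of KRTCAP2 in OGD against control was lost with no filter on low values, after quantile normalization, after length-trend removal and without OGD replicates 2 or 3 or control replicates 1 or 2 (adjusted p from 0.0526 to 0.77). KRTCAP2, not called in OGD/R against OGD with all 9 libraries as deposited, was called there under median-of-ratios scaling (-0.85, adjusted p = 0.00764), after length-trend removal (0.51, adjusted p = 0.00144), with only its own groups in the fit (-0.38, adjusted p = 0.0245), with OGD/R replicate 1 left out (-0.54, adjusted p = 0.0204), with OGD replicate 1 left out (-0.48, adjusted p = 0.0469) and with control replicate 3 left out (-0.38, adjusted p = 0.0266). KRTCAP2, not called in OGD/R against control with all 9 libraries as deposited, was called there after length-trend removal (0.56, adjusted p = 0.00177).

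RPN2, a large shared subunit (NCBI Gene 6185, chromosome 20, 37179330 to 37241619), had 205, 260.4 and 212 FPKM in OGD/R replicates 1 to 3, 132, 123 and 128 FPKM in OGD and 140.1, 127 and 129 FPKM in control. All OGD/R libraries were higher than all others, and OGD and control overlapped. RPN2 rose in OGD/R against OGD (log2 fold change 0.81, SE 0.10, adjusted p = 1.61e-05) and against control (log2 fold change 0.76, SE 0.10, adjusted p = 0.000138), while OGD against control gave -0.05 (relative value 0.26, adjusted p = 0.69). DDOST, another shared subunit that shares 20.1% of its exon bases with PINK1-AS, averaged 194 ± 14.5 FPKM in OGD/R, 153 ± 4.21 in OGD and 126 ± 18.5 in control. DDOST was higher in OGD/R than in control (0.63, adjusted p = 0.000814) and than in OGD (0.34, relative value -0.05), and higher in OGD than in control (0.29, relative value 0.60). RPN1 averaged 217 ± 20.4 FPKM in OGD/R, 302 ± 6.49 in OGD and 213 ± 19.1 in control. RPN1 rose in OGD against control (0.50, adjusted p = 0.00103) and fell in OGD/R against OGD (-0.48, adjusted p = 0.000743), so that OGD/R against control stood at 0.02 (95% interval -0.19 to 0.23). The call of DDOST in OGD against control was lost with no filter on low values, after quantile normalization, with only its own groups in the fit and without OGD replicates 1, 2 or 3 or control replicate 2 (adjusted p from 0.0524 to 0.123). The call of DDOST in OGD/R against OGD was lost after length-trend removal and without OGD/R replicate 2 (adjusted p from 0.0577 to 0.283). DDOST in OGD/R against OGD took the opposite sign under median-of-ratios scaling (-0.13, adjusted p = 0.28). The call of RPN1 in OGD/R against OGD was lost after quantile normalization (adjusted p = 0.36). RPN2, not called in OGD against control with all 9 libraries as deposited, was called there under median-of-ratios scaling (0.32, adjusted p = 0.00678) and after length-trend removal (0.25, adjusted p = 0.0135).

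Of the catalytic subunits, STT3A glycosylates chains as they enter and STT3B those that were missed. STT3A had 39.6, 46.4 and 39.9 FPKM in OGD/R replicates 1 to 3, 42.99, 40.7 and 38.04 FPKM in OGD and 35.1, 28.1 and 33.6 FPKM in control. The OGD/R and OGD libraries overlapped, and both lay above every control. STT3A was higher in OGD than in control (log2 fold change 0.33, SE 0.11, adjusted p = 0.0186) and in OGD/R than in control (log2 fold change 0.37, SE 0.11, adjusted p = 0.0137). STT3B had 56.7, 68.6 and 62.99 FPKM in OGD/R replicates 1 to 3, 89.3, 77.3 and 78.8 FPKM in OGD and 77.7, 80.2 and 67.6 FPKM in control. The OGD/R libraries lay below those of OGD, and control overlapped both. STT3B fell in OGD/R against OGD (log2 fold change -0.38, SE 0.10, adjusted p = 0.005), with -0.26 in OGD/R against control (adjusted p = 0.0592). MAGT1 and TUSC3 are alternative oxidoreductase subunits of the STT3B form. MAGT1 had 27.6, 32.5 and 32.04 FPKM in OGD/R replicates 1 to 3, 39.2, 40.1 and 36.5 FPKM in OGD and 38.6, 45.2 and 33.9 FPKM in control, OGD/R lowest and the other groups overlapping. It was lower in OGD/R than in OGD (-0.32, adjusted p = 0.0202) and than in control (-0.34, adjusted p = 0.0281). TUSC3 had 37.6, 42.8 and 47.2 FPKM in OGD/R replicates 1 to 3, 44.5, 43.1 and 41.3 FPKM in OGD and 48.6, 42.8 and 50.5 FPKM in control. Its libraries overlapped between all groups, and it was not called on the deposited scale (adjusted p from 0.244 to 0.87). The call of STT3A in OGD against control was lost without OGD replicates 1 or 2 or control replicate 2 (adjusted p from 0.0546 to 0.0731). The call of STT3A in OGD/R against control was lost after length-trend removal and without OGD/R replicate 2 (adjusted p from 0.0584 to 0.166). The call of MAGT1 in OGD/R against OGD was lost without OGD/R replicate 1 or OGD replicates 1 or 2 (adjusted p from 0.0565 to 0.0833). The call of MAGT1 in OGD/R against control was lost with no filter on low values, with only its own groups in the fit and without OGD/R replicate 1 or control replicate 2 (adjusted p from 0.0501 to 0.103). STT3A, not called in OGD/R against OGD with all 9 libraries as deposited, was called there under median-of-ratios scaling (-0.41, adjusted p = 0.00193) and after length-trend removal (-0.58, adjusted p = 0.000441). STT3B, not called in OGD against control with all 9 libraries as deposited, was called there under median-of-ratios scaling (0.49, adjusted p = 0.000724) and after length-trend removal (0.56, adjusted p = 8.56e-05). STT3B, not called in OGD/R against control with all 9 libraries as deposited, was called there under median-of-ratios scaling (-0.35, adjusted p = 0.00473), after length-trend removal (-0.46, adjusted p = 0.000366), with OGD/R replicate 2 left out (-0.32, adjusted p = 0.0416) and with control replicate 3 left out (-0.33, adjusted p = 0.0244). MAGT1, not called in OGD against control with all 9 libraries as deposited, was called there under median-of-ratios scaling (0.35, adjusted p = 0.0154) and after length-trend removal (0.41, adjusted p = 0.00361). TUSC3, not called in OGD/R against OGD with all 9 libraries as deposited, was called there under median-of-ratios scaling (-0.48, adjusted p = 0.00121).

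The ALG enzymes, which add mannose (ALG2 and ALG3) or supply and add glucose (ALG5 and ALG8) to the dolichol-linked sugar, gave 1 higher and 0 lower of 4 in OGD against control, 1 higher and 2 lower of 4 in OGD/R against OGD and 1 higher and 2 lower of 4 in OGD/R against control. The 25% called higher in OGD/R against control stood near the 24.7% of all genes. ALG higher and lower counts, in that order of comparisons, were 2 and 0, then 0 and 2, then 1 and 2 by median-of-ratios scaling, 2 and 0, then 1 and 2, then 1 and 2 after quantile normalization, and 1 and 0, then 1 and 1, then 1 and 1 with the length trend removed. ALG5, which makes the glucose donor, had 47.6, 48.8 and 44.1 FPKM in OGD/R replicates 1 to 3, 90.9, 86.01 and 91.2 FPKM in OGD and 61.9, 57.8 and 64.3 FPKM in control, OGD highest and OGD/R lowest with no overlap. ALG5 rose in OGD against control (log2 fold change 0.54, SE 0.08, adjusted p = 0.000248) and fell in OGD/R against OGD (log2 fold change -0.92, SE 0.08, adjusted p = 1.55e-06) and against control (log2 fold change -0.38, SE 0.08, adjusted p = 0.00305). ALG3 had 36.6, 44.6 and 33.8 FPKM in OGD/R replicates 1 to 3, 24.98, 24.9 and 31.7 FPKM in OGD and 25.1, 24.9 and 19.9 FPKM in control, the OGD/R libraries being the highest. ALG3 rose in OGD/R against control (log2 fold change 0.69, SE 0.13, adjusted p = 0.00164) and against OGD (0.48, relative value 0.09). ALG8 had 28.03, 26.6 and 27.5 FPKM in OGD/R replicates 1 to 3, 29.8, 36.98 and 38.7 FPKM in OGD and 34.5, 49.8 and 38.7 FPKM in control, OGD/R lowest and the other groups overlapping. It was lower in OGD/R than in control (log2 fold change -0.55, SE 0.13, adjusted p = 0.00614) and than in OGD (-0.34, adjusted p = 0.0357). ALG2 stayed between 10.8 and 16.1 FPKM and was not called on the deposited scale. The call of ALG5 in OGD/R against control was lost after length-trend removal (adjusted p = 0.0686). The call of ALG3 in OGD/R against OGD was lost under median-of-ratios scaling (adjusted p = 0.885). The call of ALG8 in OGD/R against OGD was lost with no filter on low values, after length-trend removal and without OGD/R replicates 1, 2 or 3 or OGD replicates 2 or 3 (adjusted p from 0.0542 to 0.137). ALG3, not called in OGD against control with all 9 libraries as deposited, was called there under median-of-ratios scaling (0.58, adjusted p = 0.00317) and after quantile normalization (0.42, adjusted p = 0.0171). ALG2, not called in OGD/R against OGD with all 9 libraries as deposited, was called there with only its own groups in the fit (0.29, adjusted p = 0.0165), with control replicate 2 left out (0.29, adjusted p = 0.0224) and with control replicate 3 left out (0.29, adjusted p = 0.0428).

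Ratios of paralogs within a library do not change when a library is multiplied by a scaling factor, but they can change with the length trend. The SEC11C to SEC11A ratio was 0.141, 0.129 and 0.1395 in OGD/R replicates 1 to 3, 0.421, 0.417 and 0.407 in OGD and 0.134, 0.155 and 0.138 in control, or 0.415 in OGD by geometric mean and 0.142 in control. Its log2 difference was 1.54 for OGD against control (exact permutation p = 0.1, adjusted p = 0.171), -1.61 for OGD/R against OGD (exact permutation p = 0.1, adjusted p = 0.171) and -0.06 for OGD/R against control (exact permutation p = 0.6, adjusted p = 0.655), and 1.35, -1.29 and 0.06 in the same order with the length trend removed. The STT3A to STT3B ratio was 0.699, 0.677 and 0.634 in OGD/R replicates 1 to 3, 0.481, 0.526 and 0.483 in OGD and 0.452, 0.351 and 0.497 in control. It was highest in all OGD/R libraries, with differences of 0.43 for OGD/R against OGD (exact permutation p = 0.1, adjusted p = 0.171) and 0.64 for OGD/R against control (exact permutation p = 0.1, adjusted p = 0.171). The TUSC3 to MAGT1 ratio was 1.36, 1.32 and 1.47 in OGD/R replicates 1 to 3, 1.13, 1.08 and 1.13 in OGD and 1.26, 0.946 and 1.49 in control, where the control libraries spanned those of both other groups, and the difference was 0.31 for OGD/R against OGD (exact permutation p = 0.1, adjusted p = 0.171). That pair differs in transcript length (1498 and 4033 bases), and with the length trend removed its differences were -0.49 in OGD against control, 1.002 in OGD/R against OGD and 0.51 in OGD/R against control, where the deposited scale gave -0.12, 0.31 and 0.19. The SEC61A2 to SEC61A1 ratio was 0.0505, 0.0652 and 0.0577 in OGD/R replicates 1 to 3, 0.0337, 0.0303 and 0.0377 in OGD and 0.06602, 0.0422 and 0.05 in control, lowest in all OGD libraries, with -0.62 for OGD against control (exact permutation p = 0.1, adjusted p = 0.171) and 0.77 for OGD/R against OGD (exact permutation p = 0.1, adjusted p = 0.171). These 2-sided exact permutation tests cannot go below p = 0.1 with 3 against 3 libraries, and 12 were run (4 pairs in 3 comparisons).

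**Figure D4:**
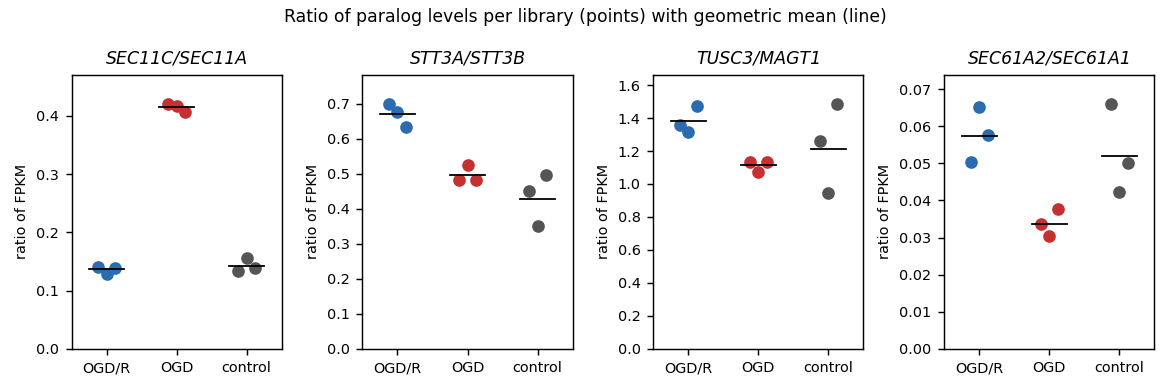
Ratio of the FPKM of paralogs (y axes from 0) in each library (points) with the geometric mean of each group (lines), for OGD/R, OGD and control. The SEC11C to SEC11A ratio stands near 0.415 in OGD and at or below 0.155 in every other library.

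Changes within the set followed transcript length, as they did over all genes. Spearman's rho between length and log2 fold change over the 39 genes was -0.35 in OGD against control, 0.43 in OGD/R against OGD and 0.31 in OGD/R against control, beside -0.36, 0.49 and 0.39 over the 10809 tested genes with a length. The genes share libraries and are not independent, so no p is given. Median length was 1178 bases for the genes that rose in OGD against control, and 1675 and 2409 bases for those that fell and rose in OGD/R against OGD. With the trend removed, SEC11C (-2.18, adjusted p = 7.06e-08), SSR3 (-1.28, adjusted p = 6.16e-06), SRPRB (-1.09, adjusted p = 1.17e-05), SPCS2 (-1.12, adjusted p = 2.63e-06) and OSTC (-1.01, adjusted p = 9.67e-06) remained lower in OGD/R against OGD. SRPRA (0.55, adjusted p = 3.94e-05) and RPN2 (0.45, adjusted p = 0.000278) remained higher. DAD1 and SSR4, at 731 and 745 bases, fell by 0.79 and 0.75 with the trend removed, against falls of 1.46 and 1.41 on the deposited scale. The long SSR1 and SEC63 transcripts, not called on the deposited scale, gave -0.67 (adjusted p = 3.65e-05) and -0.74 (adjusted p = 5.33e-05).

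**Figure D5:**
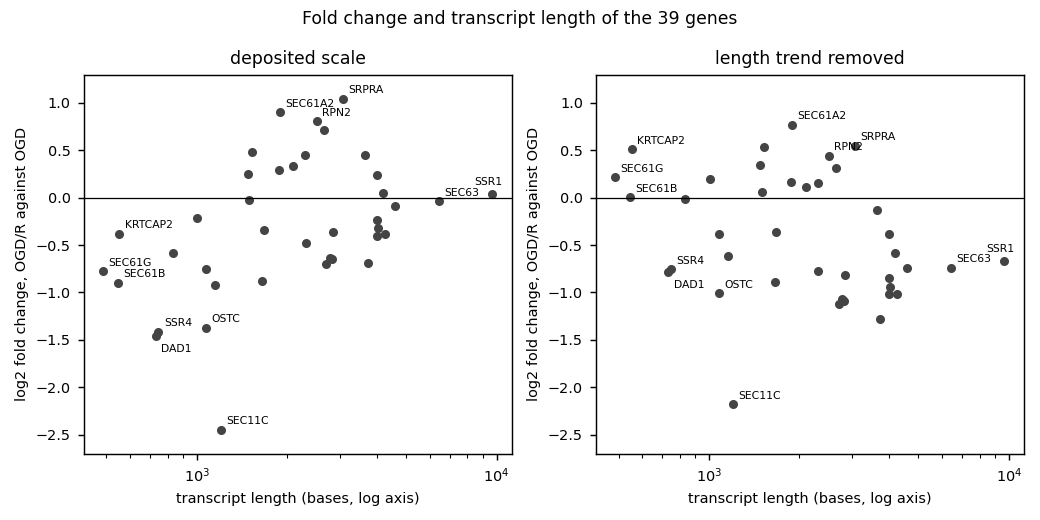
Log2 fold change in OGD/R against OGD (y axis) against transcript length (x axis, log scale) for the 39 genes (points, some named), on the deposited scale (left) and with the length trend of each library removed (right). SEC11C stays lowest in both panels (-2.45 and -2.18), whereas SEC61B, SEC61G and KRTCAP2 lie at or above 0 on the right only.

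Neighbouring genes of the pathway were read from lists that are not part of the 39. Beside their counts stand, for all genes, 11.3% higher and 46.7% lower in OGD against control, 53.3% and 17.4% in OGD/R against OGD, and 24.7% and 16.5% in OGD/R against control. Those are shares on the deposited scale. By median-of-ratios scaling they were 26.5% and 23.1%, then 32.6% and 34.2%, then 22.1% and 23%. After quantile normalization they were 20% and 22.4%, then 31.4% and 31.3%, then 22.1% and 23.1%. With the length trend removed they were 21.2% and 21.4%, then 29.7% and 29.3%, then 22% and 21.4%. Other genes of the lipid-linked sugar gave 6 higher and 1 lower of 23 tested in OGD against control, 3 higher and 8 lower of 23 in OGD/R against OGD and 4 higher and 4 lower of 23 in OGD/R against control. Their higher and lower counts, in that order of comparisons, were 17 and 0, then 1 and 18, then 4 and 5 by median-of-ratios scaling, 16 and 0, then 1 and 18, then 3 and 5 after quantile normalization, and 14 and 0, then 3 and 14, then 4 and 7 with the length trend removed. Their medians were 0.17, -0.13 and -0.02. GMPPB, which makes GDP-mannose, averaged 18.8 ± 1.803 FPKM in OGD and 11.3 ± 1.82 FPKM in control (log2 fold change 0.69, adjusted p = 0.000888, 1.11 with the length trend removed). PMM2, a phosphomannomutase earlier in that supply, averaged 28.4 ± 3.18 FPKM in OGD/R and 14.3 ± 2.44 FPKM in control (log2 fold change 0.95, adjusted p = 0.000139). DPAGT1, which starts the dolichol-linked chain, averaged 13.3 ± 0.213 FPKM in OGD/R and 8.52 ± 0.466 FPKM in control (log2 fold change 0.59, adjusted p = 0.000622). Genes of the same list also fell in OGD/R against control, among them SRD5A3 (-0.725, adjusted p = 0.00115) and ALG6 (-0.67, adjusted p = 0.0164). ALG6 was also lower in OGD/R than in OGD (-0.78, adjusted p = 0.0032). Among 7 other OST and translocon genes, 5 rose and 1 fell in OGD against control, 2 rose and 4 fell in OGD/R against OGD, and 3 rose and 1 fell in OGD/R against control. For these 7 genes the higher and lower counts, in that order of comparisons, were 6 and 1, then 1 and 5, then 2 and 1 by median-of-ratios scaling, 5 and 1, then 2 and 5, then 2 and 2 after quantile normalization, and 5 and 1, then 2 and 4, then 3 and 1 with the length trend removed. TMEM258, a small OST subunit, averaged 312 ± 23.7 FPKM in OGD and 169.7 ± 41.9 FPKM in control (log2 fold change 0.90, adjusted p = 0.0013, 0.45 with the length trend removed), and 106 ± 23.2 FPKM in OGD/R and 312 ± 23.7 FPKM in OGD (log2 fold change -1.57, adjusted p = 9.83e-06, -0.71 with the length trend removed). TRAM2, the paralog of TRAM1, rose in OGD/R, where TRAM1 fell. It averaged 35.5 ± 2.85 FPKM in OGD/R and 7.41 ± 0.724 FPKM in OGD (log2 fold change 2.12, adjusted p = 2.77e-07), against 15.2 ± 3.28 FPKM in control (OGD/R against control 1.19, adjusted p = 9.65e-05).

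Genes of the multipass translocon, which inserts proteins with many membrane spans, gave 1 higher and 1 lower of 8 in OGD against control, 5 higher and 3 lower of 8 in OGD/R against OGD and 4 higher and 2 lower of 8 in OGD/R against control. The 62.5% called higher in OGD/R against OGD stood near the 53.3% of all genes. Multipass translocon higher and lower counts, in that order of comparisons, were 2 and 0, then 4 and 3, then 4 and 3 by median-of-ratios scaling, 1 and 1, then 4 and 3, then 5 and 2 after quantile normalization, and 1 and 0, then 3 and 2, then 3 and 1 with the length trend removed. NOMO1 averaged 25.9 ± 2.67 FPKM in OGD/R and 8.19 ± 0.282 FPKM in OGD (log2 fold change 1.54, adjusted p = 1.59e-06, 0.90 with the length trend removed). It has the near-identical copies NOMO2 and NOMO3, so its level is uncertain. NOMO3, also among the 8, was called higher in OGD/R against OGD (1.46) and against control (1.25). The counts of rises may therefore hold the same reads more than once. TMEM147 averaged 60.03 ± 4.56 FPKM in OGD/R and 139 ± 1.94 FPKM in OGD (log2 fold change -1.20, adjusted p = 1.04e-06, -0.68 with the length trend removed). For the ER membrane complex, another insertase, in OGD against control limma called 0 of 10, with 2 at an unadjusted p under 0.05, and other scalings called 5 by median-of-ratios scaling, 1 after quantile normalization and 1 with the length trend removed. It had 3 higher and 4 lower of 10 in OGD/R against OGD and 1 higher and 5 lower of 10 in OGD/R against control. The 1 higher was EMC1, at 13.9 ± 1.19 FPKM in OGD/R and 7.53 ± 2.17 FPKM in control (log2 fold change 0.83, adjusted p = 0.00235). Among the 5 lower, EMC9 averaged 19.95 ± 0.198 FPKM in OGD/R and 35.5 ± 3.51 FPKM in control (log2 fold change -0.795, adjusted p = 8.91e-05). EMC7, also lower, averaged 92.06 ± 6.49 and 122.4 ± 13.9 FPKM in the same order (-0.40, adjusted p = 0.00547). ER membrane complex higher and lower counts, in that order of comparisons, were 5 and 0, then 1 and 7, then 1 and 6 by median-of-ratios scaling, 1 and 0, then 1 and 6, then 1 and 4 after quantile normalization, and 0 and 1, then 2 and 4, then 2 and 3 with the length trend removed. Of the genes for insertion of tail-anchored proteins, 2 higher and 2 lower of 8 were called in OGD against control, 2 higher and 4 lower of 8 in OGD/R against OGD and 2 higher and 4 lower of 8 in OGD/R against control. Tail-anchor higher and lower counts, in that order of comparisons, were 5 and 1, then 1 and 6, then 2 and 4 by median-of-ratios scaling, 2 and 2, then 2 and 5, then 2 and 4 after quantile normalization, and 4 and 2, then 2 and 5, then 2 and 2 with the length trend removed. Both subunits of the tail-anchor receptor fell in OGD/R against control: GET1 averaged 18.1 ± 0.619 FPKM in OGD/R and 48.7 ± 5.04 FPKM in control (log2 fold change -1.38, adjusted p = 2.54e-06) and CAMLG 20.7 ± 1.76 FPKM in OGD/R and 39.8 ± 4.88 FPKM in control (log2 fold change -0.91, adjusted p = 6.59e-05). The 2 called higher in that comparison were BAG6 (0.47, adjusted p = 0.00697) and SGTA (0.38, adjusted p = 0.0118). Glycan trimming genes had 0 higher and 4 lower of 10 tested in OGD against control, 5 higher and 1 lower of 10 in OGD/R against OGD and 4 higher and 1 lower of 10 in OGD/R against control. The 40% called lower in OGD against control and the 50% called higher in OGD/R against OGD stood near the shares of all genes, 46.7% and 53.3%. Trimming higher and lower counts, in that order of comparisons, were 1 and 0, then 5 and 3, then 4 and 3 by median-of-ratios scaling, 3 and 2, then 4 and 4, then 4 and 3 after quantile normalization, and 3 and 0, then 4 and 4, then 3 and 4 with the length trend removed. PRKCSH, the regulatory subunit of glucosidase II, averaged 144 ± 10.3 FPKM in OGD/R and 53.1 ± 12.7 FPKM in control (log2 fold change 1.45, adjusted p = 1.78e-05). MOGS, glucosidase I, averaged 22.9 ± 0.812 FPKM in OGD/R and 11.9 ± 4.797 FPKM in control (log2 fold change 0.95, adjusted p = 0.00209). MGAT2, the 1 trimming gene called lower there, averaged 28.2 ± 2.25 FPKM in OGD/R and 40.8 ± 4.11 FPKM in control (log2 fold change -0.52, adjusted p = 0.00198).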

How the data were processed

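RNA of 9 libraries was made with a SMARTer mRNA kit per the labels. The deposited table held the authors' FPKM values, 1 for each gene in each library. The genome build was GRCh38 per the submitters' processing notes. Aligner, quantification tool, annotation and strand setting are each not given in the sources used here. Groups and replicate numbers came from the sample titles, and all 9 value columns matched a sample. Pairs of libraries with identical values numbered 0.

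The 10818 genes that reached 1 FPKM in 3 or more libraries entered limma 3.58.1 (R 4.3.3) on the log2(FPKM + 1) scale, in 1 fit of 3 groups (6 residual and 6.33 prior degrees of freedom, intensity trend), with no further scaling. Fold changes on this scale understate those of low genes. P-values are 2-sided and adjusted by Benjamini-Hochberg over all genes tested in a comparison, at a threshold of 0.05. The fit was tested on simulated data. Alternatives were a pseudocount of 0.1, no filter, median-of-ratios scaling, quantile normalization, removal of the length trend (lowess, span 0.5), a robust prior, only the compared groups, a replicate block and each library left out. Lengths are those of GENCODE 29 principal transcripts, coordinates are from RefSeq GRCh38.p14, and overlaps are of GENCODE 29 exons on either strand. Plots used matplotlib 3.10.9 and Python 3.11.15.

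The 39 genes, the other lists and the tests were chosen with earlier results of these data known. All 39 may be described. Values per library are given for up to 3 called genes with the largest change in each functional group and for 4 paralog pairs, and from each other list up to 2 called genes with the largest change in each direction and comparison could be named.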

Additional observations from a re-analysis of the deposited data

How the results depend on the processing

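Of 1989 comparisons of a gene's log2 fold change with its value under an alternative, 122 lost a call, 52 gained one and 30 changed sign with a call in at least 1 of the compared fits. Of the other 1785, 51 changed sign with no call in either fit: 10 under median-of-ratios scaling, 11 under quantile normalization, 8 with the length trend removed and 22 with 1 library left out. Called values moved by over 1.5 times in 45 of 72 cases under median-of-ratios scaling, 22 under quantile normalization, 43 with the length trend removed and 4 of 648 with 1 library left out. Changes of sign that involved a call came, after median-of-ratios scaling, in OGD against control HSPA13 (0.31), SRP54 (0.065), SRP68 (0.22), SRPRA (0.22), RPN2 (0.32) and MAGT1 (0.35); in OGD/R against OGD SEC61A1 (-0.009), SEC62 (-0.22), SSR1 (-0.41), SRP9 (-0.22), SRP54 (-0.008), DDOST (-0.13) and STT3A (-0.41). After quantile normalization such changes came in OGD/R against OGD SSR1 (-0.34) and SSR2 (0.11). With the length trend removed they came in OGD against control SEC62 (0.008), HSPA13 (0.38), SRPRA (0.24), RPN2 (0.25) and MAGT1 (0.41); in OGD/R against OGD SEC61A1 (-0.13), SEC61B (0.006), SEC61G (0.22), SEC62 (-0.38), SSR1 (-0.67), SSR2 (0.20), STT3A (-0.58) and KRTCAP2 (0.51); in OGD/R against control SEC61B (0.21) and SEC61G (0.37). Among the 39 genes in OGD against control, 30 rose and 1 fell after median-of-ratios scaling, and 1 fell with the length trend removed. In OGD/R against OGD 4 rose after median-of-ratios scaling. Leaving out 1 library gave 11 to 18 rises in OGD against control, the lowest without control replicate 2. Over all genes in OGD against control, higher calls and lower calls numbered 2863 and 2495 under median-of-ratios scaling, 2166 and 2427 under quantile normalization, and 2291 and 2313 with the length trend removed. In OGD/R against OGD they numbered 3525 and 3704, 3399 and 3386, and 3208 and 3168 under the same settings. The other counts over the 39 genes together and over all genes stayed within 1.5 times their value, whereas those of single functional groups and lists moved more in places, as given beside them. The cause was not tested.

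Deviations from group means correlated at -0.20 to 0.15 for libraries of the same replicate number, and at -0.242 to 0.37 for those of different numbers. Of the 9 libraries, 2 correlated best with their own number. With 3 libraries a group, such correlations cannot exclude that replicates were paired by culture or run, which no source describes. With the replicate number as a block, 15 of the 39 genes rose and 3 fell in OGD against control, 9 rose and 18 fell in OGD/R against OGD, and 8 rose and 13 fell in OGD/R against control. The block ended 7 calls (adjusted p from 0.0548 to 0.0827), those of SEC61A1, SPCS2 and DDOST in OGD against control and of SEC62, SSR2, SRP19 and SRP72 in OGD/R against OGD, and SPCS1 was called lower in OGD/R against control with it (adjusted p = 0.0336). These changes under the block are given here only and add to those listed above for single genes. The depth of the libraries is unknown, so it cannot be said what it limits.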
